A study of Mus musculus with 14 samples.

Results

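The proteasome genes of a mouse acute myeloid leukaemia line were followed across control hairpin and Ogdh hairpin cells. The genes were taken by name, as every entry of the count table whose symbol starts with Psm, a letter from a to g and a digit, with pseudogenes left out. This gave 50 of 53465 genes, and 48 of them passed the filter on low counts that left 10791 genes of the table for testing. The 2 that did not pass were Psmb11, the subunit of the thymic cortex, with 0 counts in 11 of 14 libraries, and Psme2b, a near copy of Psme2, at 1.26 counts-per-million (CPM) or less. The name rule also took Psmc3ip, a meiotic recombination factor named for binding Psmc3, which is no proteasome subunit but is counted in all totals below unless it is said to be left out. No measured value entered the rule.

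The proteasome is the protease that degrades ubiquitin-tagged proteins. Its core is a barrel of alpha subunits (Psma), which form the outer rings and gate the entrance, and beta subunits (Psmb), of which Psmb5, Psmb6 and Psmb7 carry the constitutive active sites. The cap holds a ring of ATPases (Psmc), which unfold the substrate, and non-ATPase subunits (Psmd), which bind and remove ubiquitin. Interferon replaces the constitutive active subunits by Psmb8, Psmb9 and Psmb10, which form the immunoproteasome that cuts peptides for MHC class I. Psme proteins are alternative caps that open the core, Psmf1 is an inhibitor, and Psmg proteins are chaperones of core assembly. Proteasome inhibitors are used against several blood cancers.

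The line, KL974, carries mutant Trp53 (R172H) and hairpins against Mll3 and Nf1, and all groups share these changes. It was kept with serum and the mouse cytokines IL3, IL6 and SCF, and carried by lentivirus a further hairpin that doxycycline induces together with blue fluorescent protein (BFP). The 7 groups of 2 libraries were BFP positive cells with the Ogdh hairpin shOgdh346 at day 4, BFP positive cells with the Ogdh hairpin shOgdh2081 at day 4, and control hairpin cells (shRen713, against a luciferase) as untreated cells at day 0, BFP positive and BFP negative cells at day 2, and BFP positive and BFP negative cells at day 4. Ogdh is the dehydrogenase subunit of the 2-oxoglutarate dehydrogenase complex of the citric acid cycle. It is a single line, and nothing says that the replicates came from separate cultures, so the p-values measure the spread between these libraries, which may be technical. Day 0 cells had neither doxycycline nor, as far as the labels say, a sort.

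Libraries held between 913482 and 10271698 counts, and the shallower library of each Ogdh hairpin had 1159021 (shOgdh346 replicate 2) and 913482 counts (shOgdh2081 replicate 1). Ogdh itself measured 60.8 and 60.8 CPM under shOgdh346, 51.5 and 52.3 CPM under shOgdh2081, against 247 and 267 CPM in control BFP positive cells at day 4. Of 10 markers of myeloid cells and blood progenitors, Kit (481 to 580 CPM), Myb (537 to 891 CPM) and Ptprc (5.45 to 15.4 CPM) passed the filter. Cebpa, Itgam and Elane had 0 counts in every library and Mpo, Cd34, Csf1r and Spi1 were near 0, so several defining markers of the labelled cell type were absent. The 7 erythroid markers summed to between 876 and 1091 CPM and the 6 mast cell and basophil markers to between 325 and 472 CPM.

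Proteasome genes spanned a wide range of levels. Levels of different genes are given as CPM per kilobase, averaged over the 14 libraries. With the deposited gene lengths, the core subunits ran from 4.51 for Psma8, the testis form of an alpha subunit, and 27.9 for Psma3 to 127.5 for Psma5 and 292 for Psmb1. The ATPases ran from 47.2 (Psmc4) to 162 (Psmc5) and the Psmd genes from 8.51 (Psmd9, an assembly chaperone) to 131 (Psmd2). The core chaperones ran from 7.18 (Psmg3) to 56.2 (Psmg2). The activators ran from 19.8 (Psme4) to 133 (Psme3) among those tested, and the inhibitor Psmf1 was at 12.02. The immunoproteasome subunits were lower than most of the core, at 10.6 for Psmb8, 8.64 for Psmb9 and 46.0 for Psmb10. For 46 of the 50 genes the deposited length equals the union of all annotated exons. The deposited length is more than 1.5 times that of the principal transcript for 27 genes. The exceptions to the union are Psma8, Psmb1, Psmb8 and Psmg2. Psmb1 has a deposited length of 1036 bases, beside 1758 for its principal transcript and 4595 for the union. Divided by principal transcript length Psmb1 stood at 172, so its top place in the core depends on that short length. Divided by principal transcript length, Psmb4 (288), Psma7 (281) and Psmb3 (255.8) led the core, Psmc3 (188) the ATPases and Psme1 (181) the activators, so the order within a family depends on the length used.

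Knockdown of Ogdh came with lower transcripts of 20 of the 35 tested core and cap genes of the proteasome, whose log2 fold changes ran from -0.41 to 0.07. The 35 include the base assembly chaperones Psmd5, Psmd9 and Psmd10, and Psmd5 and Psmd9 make up the upper end. Of the 48 tested genes, 23 fell and none was called higher in the mean of both Ogdh hairpins against control BFP positive cells at day 4 (quasi-likelihood test of edgeR, adjusted p under 0.05 over all tested genes). Over all tested genes 8.36% were called lower and 7.72% higher. The median log2 fold change of the 48 was -0.21, a ratio of 0.862, beside 0.00024 over all tested genes, and 43 of the 48 values were negative. In 28 of the 48 all 4 Ogdh libraries lay below all 4 control libraries of day 4, BFP positive and negative, as did 13.3% of all tested genes. None of the 48 lay wholly above, beside 11.2% of all tested genes. Without Psmc3ip, 22 of 47 genes fell, and 27 lay wholly below.

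**Figure D1:**
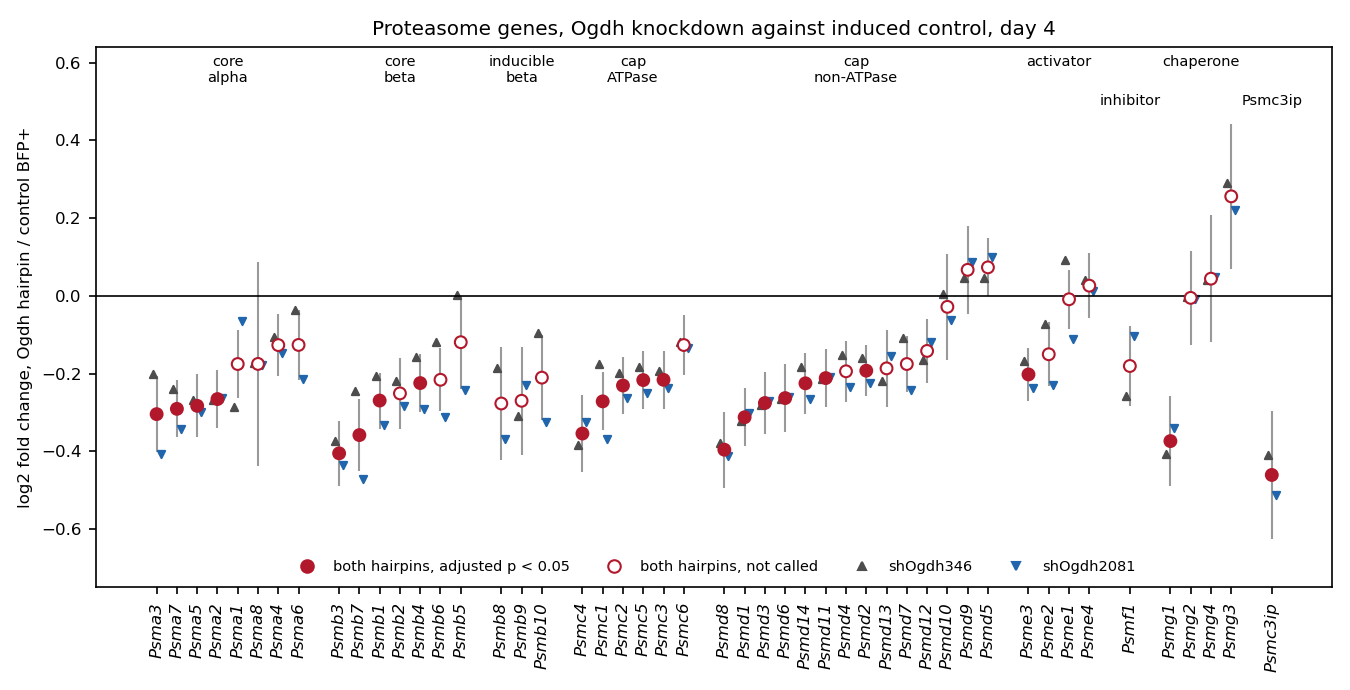
Log2 fold change of each tested proteasome gene in Ogdh hairpin cells over control BFP positive cells at day 4, grouped by role. Circles are the mean of both hairpins with the standard error, filled where adjusted p is under 0.05, and triangles are the single hairpins. Filled circles lie between -0.19 (Psmd2) and -0.46 (Psmc3ip), while Psmd5, Psmd9, Psme1, Psme4, Psmg2 and Psmg4 lie near 0.

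In the core, 4 of 8 alpha genes fell (Psma2, Psma3, Psma5 and Psma7), with a median log2 fold change over the 8 of -0.22. Of the 7 constitutive beta genes 4 fell (Psmb1, Psmb3, Psmb4 and Psmb7), with a median of -0.25. Psmb3, a structural beta subunit (ENSMUSG00000069744, chr11:97703399-97713500, GRCm38), had the largest change of the core. It measured 163 and 139 CPM under shOgdh346, 143.7 and 151 CPM under shOgdh2081, against 207 and 195 CPM in control BFP positive cells, and the groups did not overlap. Its log2 fold change was -0.41 ± 0.08 (SE, adjusted p 0.000268 by edgeR). Psmb7, which carries the trypsin-like active site, measured 98.5 and 95.8 CPM under shOgdh346, 84.4 and 83.2 CPM under shOgdh2081, against 119 and 112 CPM in control BFP positive cells. All 4 Ogdh libraries were lower, and the log2 fold change was -0.36 ± 0.09 (adjusted p 0.00386 by edgeR). The other active-site genes were not called in the mean of both hairpins. Psmb5, of the chymotrypsin-like site, measured 68.1 and 47.1 CPM under shOgdh346, 48.2 and 54.5 CPM under shOgdh2081, against 65.2 and 59.7 CPM in control BFP positive cells, so the groups overlapped (log2 fold change -0.12 ± 0.12). Psmb6, of the caspase-like site, had a log2 fold change of -0.22 ± 0.08 with an adjusted p of 0.0569 by edgeR. It was called with the replicate number as a block (adjusted p 0.0435 by edgeR) and against both day 4 control groups (0.0148 by edgeR). With shOgdh2081 alone Psmb6 was called lower, a call lost in 6 of 12 alternatives.

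In the cap, 5 of 6 ATPases fell (Psmc1 to Psmc5), with a median log2 fold change of -0.22, and Psmc6 stood at -0.13 ± 0.08 and was not called. Psmc4 had the largest change of the ring, with 75.6 and 67.6 CPM under shOgdh346, 71.3 and 78.5 CPM under shOgdh2081, against 101 and 90.5 CPM in control BFP positive cells. Of 14 non-ATPase genes 7 fell, namely Psmd1, Psmd2, Psmd3, Psmd6, Psmd8, Psmd11 and Psmd14. Psmd14 is the deubiquitinase of the lid, and Psmd1 and Psmd2 are the large scaffold subunits of the base. Psmd1 measured 214 and 232 CPM under shOgdh346, 235 and 218 CPM under shOgdh2081, against 273 and 277 CPM in control BFP positive cells, with no overlap (log2 fold change -0.31 ± 0.08, adjusted p 0.00206 by edgeR). Psmd8, a lid subunit, measured 96.3 and 71.0 CPM under shOgdh346, 83.3 and 88.8 CPM under shOgdh2081, against 113 and 120.3 CPM in control BFP positive cells. It had the largest change of the cap, -0.40 ± 0.10. Psmd4, a ubiquitin receptor, stood at -0.19 ± 0.08 and was not called.

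The Psmd genes that act as chaperones of base assembly and are not part of the finished particle did not show this. Psmd5 measured 255 and 249.9 CPM under shOgdh346, 259.9 and 264 CPM under shOgdh2081, against 258 and 230.3 CPM in control BFP positive cells, with overlap (log2 fold change 0.07 ± 0.07). Psmd9 stood at 0.07 ± 0.11 and Psmd10, known as gankyrin, at -0.03 ± 0.14, and neither was called. Of the 4 core chaperones, Psmg1 alone was called. It measured 47.7 and 40.2 CPM under shOgdh346, 42.8 and 49.6 CPM under shOgdh2081, against 60.5 and 61.6 CPM in control BFP positive cells, a log2 fold change of -0.37 ± 0.12 (adjusted p 0.0187 by edgeR). Its partner Psmg2 stood at -0.01 ± 0.12, Psmg4 at 0.04 ± 0.16 and Psmg3 at 0.26 ± 0.19. None of these 3 was called. Psmg2 had about the level and the error of Psmg1, while Psmg3 and Psmg4 were lower in level with wider errors, and no test was made of a difference between chaperones and subunits.

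Among the activators, Psme3, the nuclear activator, fell by 0.20 ± 0.07 on the log2 scale. Psme1 and Psme2, the interferon-induced pair, stood at -0.01 ± 0.08 and -0.15 ± 0.08, Psme4 at 0.03 ± 0.08 and the inhibitor Psmf1 at -0.18 ± 0.10, and none of these was called. The immunoproteasome genes Psmb8 (-0.28 ± 0.15), Psmb9 (-0.27 ± 0.14) and Psmb10 (-0.21 ± 0.11) were not called either. Their values were as low as those of called subunits and their errors wider. For Psmb8 and Psmb9 all 4 Ogdh libraries lay below all 4 control libraries of day 4. Against BFP negative control cells, Psmb10 (-0.30, adjusted p 0.018 by edgeR) and Psme2 (-0.26, adjusted p 0.00858 by edgeR) were called lower. Psmc3ip fell by 0.46 ± 0.16 on the log2 scale.

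Neither hairpin alone gave as many calls as the mean of the pair. With shOgdh346 8 of the 48 fell (5.6% of all tested genes were called lower), and with shOgdh2081 17 fell (5.53% of all tested genes). Median log2 fold changes were -0.18 with shOgdh346 and -0.24 with shOgdh2081. Both comparisons use the same control libraries. Psma2, Psma5, Psmb3, Psmd1, Psmd3 and Psmd8 were called with each hairpin. With shOgdh346 the Psma5 call was lost with another scaling, with no filter, with a length offset and with DESeq2. It was also lost with library number as a block and at equal depth. The Psma2 call with shOgdh346 was lost in 7 of 12 alternatives. Both calls were lost without any 1 of the 4 libraries compared. Those of Psmb3, Psmd1, Psmd3 and Psmd8 with shOgdh346 were lost in 3 to 5 of 12. Thinned to equal depth, the libraries gave no call with shOgdh346, beside 1.32% of all tested genes called lower. DESeq2 gave 2, beside 1.74% of all tested genes. A direct test of shOgdh2081 against shOgdh346 called no proteasome gene (0.0834% of all tested genes were called), with 4 at an unadjusted p under 0.05 in edgeR and no call in DESeq2. The differences ran from -0.24 to 0.22 on the log2 scale.

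**Figure D2:**
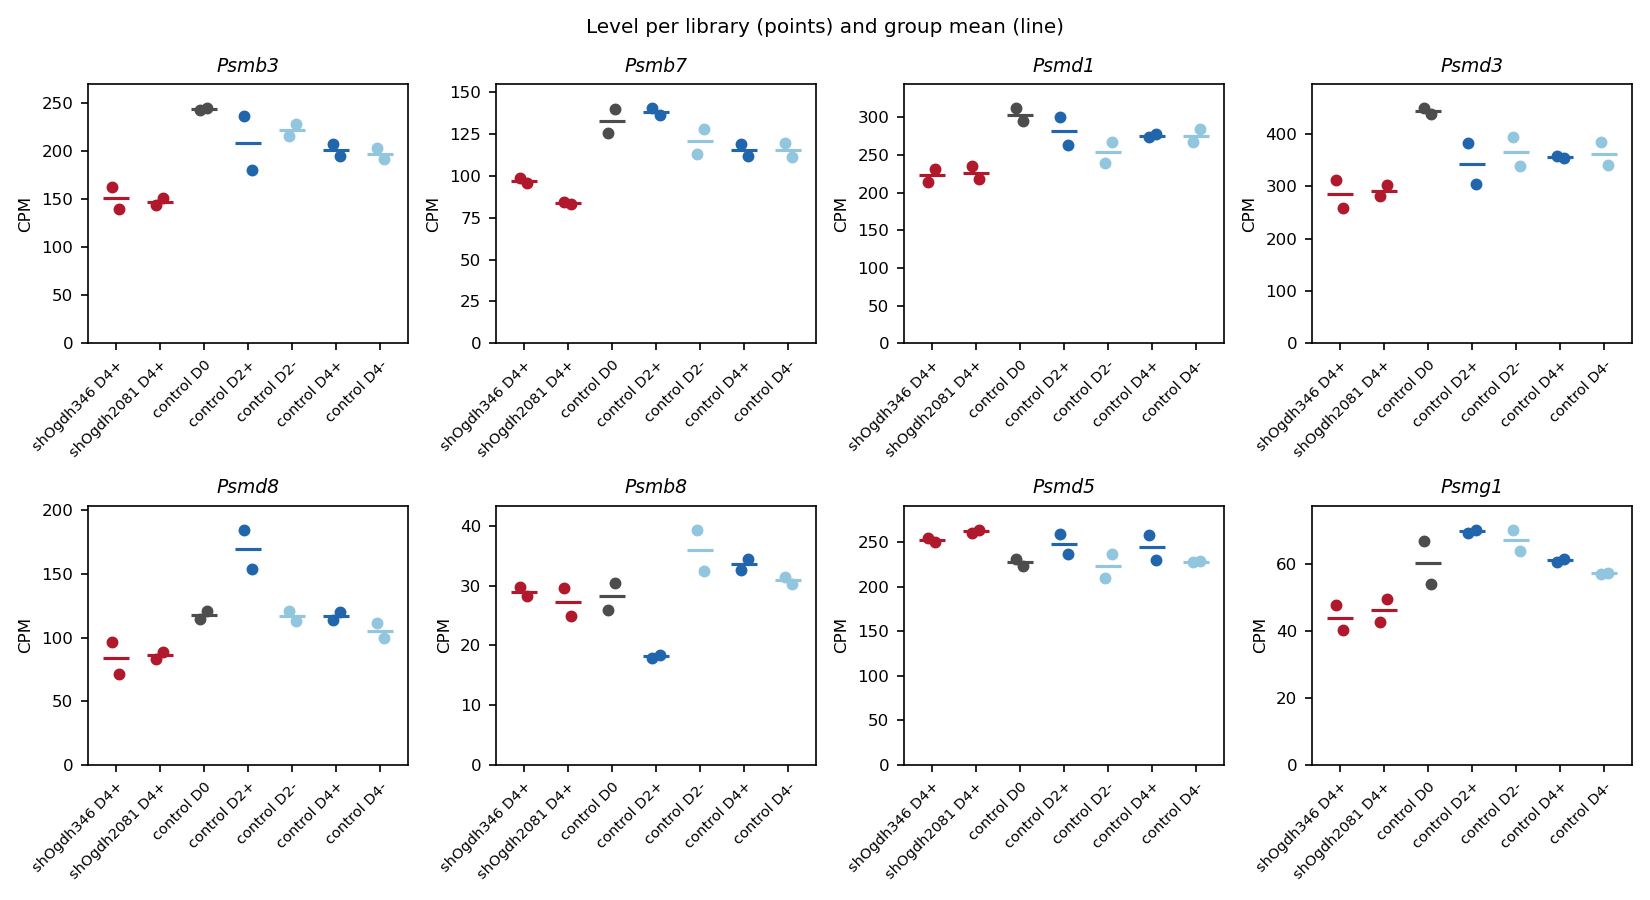
Levels of 8 proteasome genes in every library, in CPM from 0, with points for libraries and lines for group means; shOgdh346 and shOgdh2081 are the Ogdh hairpins, control is the control hairpin, D the day, + BFP positive and - BFP negative. Psmb3, Psmb7, Psmd1, Psmd3, Psmd8 and Psmg1 are lower in the Ogdh libraries than in the day 4 control libraries, Psmd5 is not, and Psmb8 is lowest in BFP positive control cells at day 2.

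Of the single libraries left out in turn, the control libraries changed the number of calls most, while no call changed direction. Without control BFP positive replicate 1 of day 4 a single gene of the 48 was called (Psmd8), with a median log2 fold change of -0.17, and without replicate 2 there were 9 calls and a median of -0.24. Without either shOgdh2081 library or shOgdh346 replicate 2 there were 15 calls, and without the shallower library of each hairpin 11. The calls of Psmb3, Psmb7 and Psmd1 were lost without control replicate 1 and that of Psmd8 without control replicate 2. Other calls were less stable over the 17 alternatives. That of Psmc3ip was lost in 10, of Psme3 in 9, of Psma3 in 8 and of Psmg1 in 6, and each of these was lost without either control library and with DESeq2. Psma3 was also not called against BFP negative cells (-0.13 ± 0.09, adjusted p 0.308 by edgeR). DESeq2 called 9, beside 3.46% of all tested genes called lower. Libraries thinned to equal depth gave 5, beside 2.92% of all tested genes. With shOgdh346 alone the count was 0 without control replicate 1, 3 without control replicate 2, 3 without shOgdh346 replicate 1 and 1 without its replicate 2, and with shOgdh2081 alone it was 0, 9, 5 and 3 in the same order of libraries left out. Against BFP negative control cells of day 4, 23 of the 48 fell, beside 10.3% of all tested genes, with a median log2 fold change of -0.19. This comparison uses the same 4 Ogdh libraries and the same model of all samples, so it is not independent of the one above. Every call under these settings was in the lower direction. Calls over all tested genes also became fewer without either control library. Without control replicate 1 the share of proteasome genes called was close to that over all tested genes. The median log2 fold change over all tested genes was 0.0084 without control replicate 1 and 0.0063 without control replicate 2.

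The share of a library's counts that fell on the 50 genes was 0.765% and 0.741% with shOgdh346 and 0.709% and 0.730% with shOgdh2081, against 0.864% and 0.826% in BFP positive and 0.846% and 0.838% in BFP negative control cells at day 4. All Ogdh libraries lay below all control libraries. In bulk RNA, fewer cells of a kind and less RNA per cell cannot be told apart. In the same Ogdh libraries 3 of 7 erythroid markers were called higher (Car1, Hbb-bt and Hba-a1), and the 7 summed to between 964 and 1081 CPM, against 876 and 908 CPM in BFP positive and 1015 and 924 CPM in BFP negative control cells at day 4, so the sums overlapped with the BFP negative cells. Of 3 tested mast cell and basophil markers Ms4a2 was called higher, and the list summed to between 443 and 472 CPM, against 377 and 381 CPM in BFP positive and 374 and 347 CPM in BFP negative control cells; Mcpt8 was at 0 in every Ogdh library. Of 3 tested myeloid and progenitor markers Myb was called higher. The part of these markers in the fall of proteasome transcripts was not tested.

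**Figure D3:**
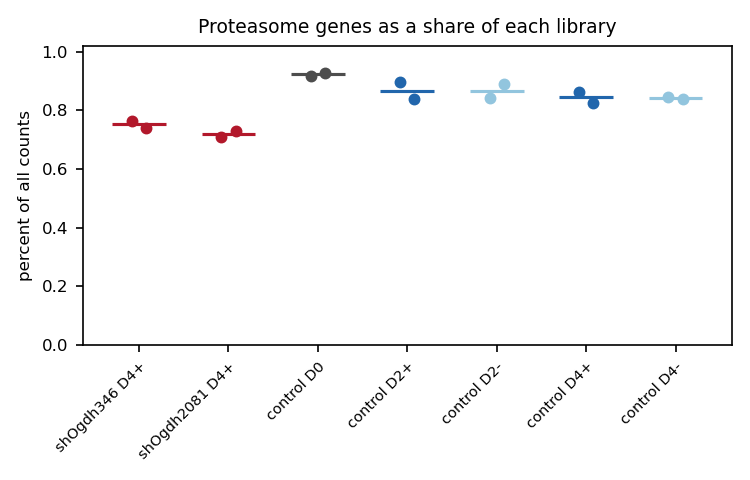
Share of each library's counts on the 50 proteasome genes, in percent of all counts from 0, with points for libraries and lines for group means; shOgdh346 and shOgdh2081 are the Ogdh hairpins, control is the control hairpin, D the day, + BFP positive and - BFP negative. The Ogdh libraries (0.709% to 0.765%) lie below every control library, and day 0 (0.917% and 0.929%) lies highest.

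Genes that work with the proteasome but lie outside the name rule were read from a list of 32, of which 28 were in the table and tested. In Ogdh knockdown 5 fell and none was called higher, with a median log2 fold change of -0.05. Pomp, the maturation factor of the core, fell by 0.30 ± 0.08 on the log2 scale, with 184 and 171 CPM under shOgdh346, 169 and 162 CPM under shOgdh2081, against 212 and 211 CPM in control BFP positive cells. Sem1, a small lid subunit, fell by 0.32 ± 0.10, and Uchl5, a deubiquitinase of the cap, fell by 0.45 ± 0.10. Vcp, the unfolding ATPase upstream of the proteasome, and Uba1, the main ubiquitin activating enzyme, were the other two called. Nfe2l1 and Nfe2l2, transcription factors known to drive proteasome genes, stood at 0.09 ± 0.09 and -0.09 ± 0.08 and were not called.

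Promoter sequence, from 250 bases before to 50 bases after the start site in RefSeq (GRCm38.p6), was available for 42 of the 50 genes. It was searched on both strands for the CCAAT box, written CCAAT, and for TGACNNNGC, the core of the antioxidant response element that Nfe2l1 and Nfe2l2 bind. CCAAT was in 15 of the 42 promoters (35.7%), beside 41.1% of 27025 promoters of all genes. TGACNNNGC was in 6 of the 42 (14.3%), beside 14% of all promoters, and TGACTCAGC, a special case of it, was in none, beside 0.503%. Among genes with a promoter entry, CCAAT was in 9 of the 19 that fell in Ogdh knockdown and in 5 of the 21 not called, and TGACNNNGC in 0 of 19 and in 6 of 21. These counts are a description of letters and were not tested. The groups came from the same data, and Psmb6, which has TGACNNNGC, stood among those not called but was called with shOgdh2081 alone. Psmb3, the subunit gene of the core that changed most, has CCAAT at positions -85 and -43 from its start site, and Psmb5, which was not called, has TGACGTCGC at -47. This pair was picked after the values were seen, and both promoters are shown only as examples, with the motif in capitals. That of Psmb3 lies on the plus strand at chr11:97703184-97703483 and that of Psmb5 on the minus strand at chr14:54617946-54618245.
Psmb3: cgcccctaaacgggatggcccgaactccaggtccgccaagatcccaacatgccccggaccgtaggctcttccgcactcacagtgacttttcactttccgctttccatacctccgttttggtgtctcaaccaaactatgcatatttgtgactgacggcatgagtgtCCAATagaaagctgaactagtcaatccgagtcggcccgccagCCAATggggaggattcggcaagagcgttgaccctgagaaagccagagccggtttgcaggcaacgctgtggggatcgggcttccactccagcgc
Psmb5: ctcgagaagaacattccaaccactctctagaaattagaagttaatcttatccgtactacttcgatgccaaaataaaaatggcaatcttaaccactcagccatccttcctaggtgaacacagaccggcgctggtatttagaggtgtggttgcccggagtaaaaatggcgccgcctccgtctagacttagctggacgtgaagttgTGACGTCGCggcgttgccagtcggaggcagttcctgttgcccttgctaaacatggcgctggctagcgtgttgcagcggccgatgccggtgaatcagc

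In control hairpin cells at day 2, BFP positive against BFP negative, 4 proteasome genes were higher and 2 lower (3% of all tested genes were called higher and 3.22% lower). The 4 higher genes were Psma1, Psmc4, Psmd8 and Psmd13, which belong to different parts of the particle and are the 4 tested proteasome genes on chromosome 7. Psmd8 (chr7:29174188-29180701) measured 185 and 154 CPM in BFP positive cells and 121 and 113 CPM in BFP negative cells, with no overlap (log2 fold change 0.57 ± 0.10, adjusted p 9.32e-05 by edgeR). Psma1 (chr7:114264606-114276118), an alpha subunit, measured 229 and 191 CPM in BFP positive cells and 146 and 169 CPM in BFP negative cells (0.42 ± 0.09). Psmc4 (chr7:28041707-28050101) stood at 0.34 ± 0.10 and Psmd13 (chr7:140881968-140898643) at 0.38 ± 0.11. Of the 44 proteasome genes on other chromosomes none was called higher, and their median log2 fold change was -0.02.

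This followed the whole chromosome. All tested genes of chromosome 7 had a median log2 fold change of 0.26 in this comparison, while the medians of the other chromosomes lay between -0.06 and 0.07, and 48.9% of the 317 genes on named chromosomes that were called higher lay on chromosome 7. Each of the BFP positive libraries of day 2 showed it, with chromosome 7 medians 0.28 and 0.25 above the mean of all libraries on the log2 scale, against at most 0.04 in any other library. At day 4 it was smaller, with a chromosome 7 median of 0.06 between BFP positive and negative cells, within the range of the other chromosomes (-0.04 to 0.06). With each library's chromosome medians taken out, none of the 4 genes was called at day 2, and the values fell to between 0.09 (Psmc4) and 0.32 (Psmd8). The cause of the chromosome's shift was not tested. Without BFP positive replicate 1 of day 2 no proteasome gene was called in this comparison, higher or lower.

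**Figure D4:**
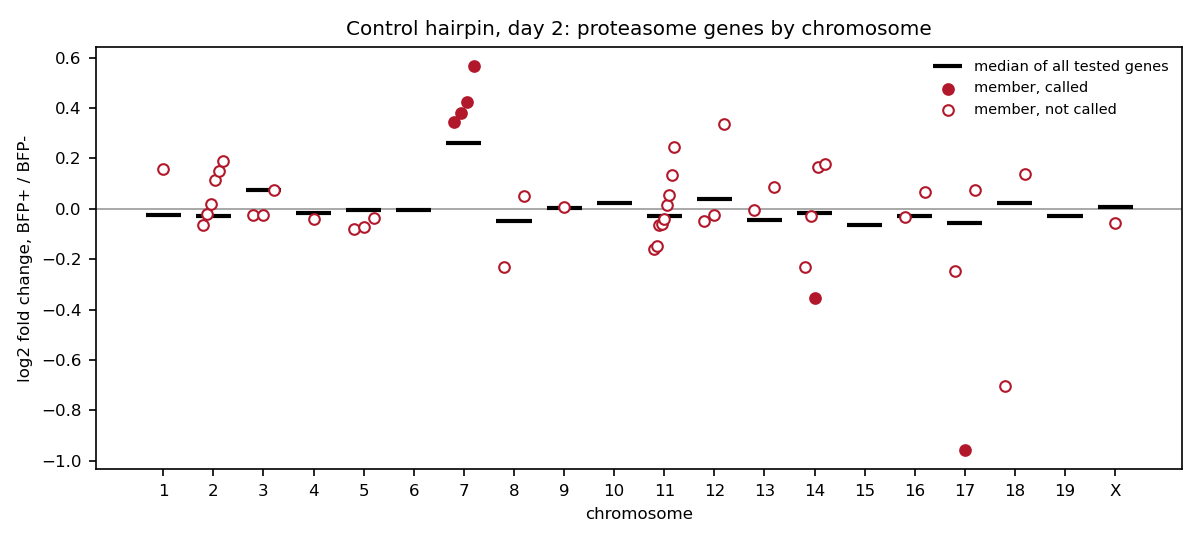
Log2 fold change of proteasome genes in BFP positive over BFP negative control hairpin cells at day 2 (y axis), by chromosome (x axis). Circles are proteasome genes, filled where adjusted p is under 0.05, and bars are the median of all tested genes on the chromosome; the 4 genes on chromosome 7 lie between 0.34 and 0.57, above a chromosome median of 0.26, and Psmb8 on chromosome 17 lies at -0.96.

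The lower genes of that comparison were of the interferon-induced set. Psmb8, the immunoproteasome's chymotrypsin-like subunit (ENSMUSG00000024338, chr17:34197721-34201454), measured 17.9 and 18.4 CPM in BFP positive cells and 39.4 and 32.4 CPM in BFP negative cells at day 2. This is a ratio of 0.515 with no overlap (log2 fold change -0.96 ± 0.19, adjusted p 0.000319 by edgeR). The 2 BFP positive libraries of day 2 were the lowest of all 14, as the next lowest had 24.9 CPM. Psme2, an activator subunit, measured 160.1 and 144.5 CPM in BFP positive cells and 196 and 197 CPM in BFP negative cells (-0.35 ± 0.09, adjusted p 0.0106 by edgeR). Psme1 (-0.23 ± 0.09), Psmb9 (-0.25 ± 0.17) and Psmb10 (-0.23 ± 0.11) were not called.

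At day 4 Psmb8 differed little, with 32.6 and 34.5 CPM in BFP positive cells and 31.4 and 30.3 CPM in BFP negative cells. The log2 difference of Psmb8 between BFP positive and negative cells rose by 1.08 ± 0.24 between the days (adjusted p 0.00823 by edgeR). Psmb8 was the only proteasome gene called for this change (0.658% of all tested genes were called). That call was lost without any 1 of BFP negative replicate 1 of day 2, BFP positive replicate 1 of day 2 or either BFP positive library of day 4, with log2 values no lower than 0.58 over all settings tried, and DESeq2 made no call. At day 4 no proteasome gene was called between BFP positive and negative cells (0.0741% of all tested genes were called), none had an unadjusted p under 0.05 in edgeR, and DESeq2 made no call. Values ran from -0.19 to 0.42 on the log2 scale with standard errors that leave room for small differences.

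Of 14 class I antigen processing genes outside the name rule 12 were tested, and at day 2 Irf1, an interferon-induced transcription factor, and Tapbp, the chaperone that loads peptides, were lower in BFP positive than in BFP negative cells (-0.94 ± 0.28 and -0.41 ± 0.10). Irf1 measured 9.3 and 6.13 CPM in BFP positive cells and 16.7 and 15.2 CPM in BFP negative cells. The peptide transporter genes Tap1 and Tap2 stood at -0.34 ± 0.15 and -0.34 ± 0.16 and were not called, and H2-K1, H2-D1 and B2m were not called either. In the same comparison 3 of 7 erythroid markers were lower and none higher, and the stromal marker Dcn, the single tested gene of its list of 4, was lower, at 6.20 and 6.13 CPM in BFP positive cells and 12.4 and 12.6 CPM in BFP negative cells. Col1a1 and Col3a1 were at or near 0 in every library. The part of these markers in the fall of Psmb8 was not tested. In Ogdh knockdown a single gene of the 12 was called, Tapbp, which was higher (0.35 ± 0.08).

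The make-up of the active sites was set as the share of Psmb8, Psmb9 and Psmb10 in the sum of these with Psmb5, Psmb6 and Psmb7, in counts per kilobase of deposited length. It averaged 23.6% ± 1.49 (SD) in the 4 Ogdh libraries and 23.3% ± 0.406 in the 4 control libraries of day 4, a difference of 0.329 percentage points (exact two-sided permutation test over libraries, p = 0.743). No shift towards or away from the immunoproteasome was detected at transcript level. The test took all libraries as interchangeable, although they differ in hairpin and in BFP sort, so it cannot speak to either hairpin alone. The Ogdh libraries spread more widely (21.9% to 25.2%). At day 2 the share was 22.8% and 19.99% in BFP positive cells and 27.0% and 24.0% in BFP negative cells. The chymotrypsin-like site alone was read per kilobase of principal transcript length, another base than that of the share above. Psmb8 then made up 11.4% and 11.2% of Psmb5 and Psmb8 in BFP positive cells at day 2. It made up 21.7% and 18.1% in BFP negative cells at day 2, and 16.8% to 25.3% in all other groups.

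In sorted control cells at day 4 some proteasome transcripts were lower than in the untreated, unsorted cells of day 0. The share of counts on the 50 genes was 0.917% and 0.929% at day 0, 0.898% and 0.837% in BFP positive and 0.844% and 0.890% in BFP negative cells at day 2, and 0.864% and 0.826% in BFP positive and 0.846% and 0.838% in BFP negative cells at day 4. BFP positive replicate 1 of day 2 came closest to day 0, and the median log2 fold change of BFP positive cells at day 2 against day 0 was -0.016. Against day 0, 8 of 48 genes were lower in BFP negative cells at day 4 (4.19% of all tested genes were called lower), with a median log2 fold change of -0.12, and 5 were lower in BFP positive cells at day 4 (3.65% of all tested genes), with a median of -0.12. The comparisons share the day 0 libraries, and they join time, doxycycline and sorting, which cannot be told apart. Psmd3, a lid subunit, measured 449 and 438 CPM at day 0, 382 and 303 CPM in BFP positive and 394 and 338 CPM in BFP negative cells at day 2, and 358 and 353 CPM in BFP positive and 384 and 340.0 CPM in BFP negative cells at day 4. All 8 sorted libraries lay below day 0, and Psmd3 was called in each of the 4 comparisons with day 0 (log2 fold changes -0.35 to -0.29). Psmd2 measured 517 and 506 CPM in BFP positive and 538 and 517 CPM in BFP negative cells at day 4, against 636 and 641 CPM at day 0, with no overlap. Psmf1, the inhibitor, measured 72.4 and 73.1 CPM in BFP negative cells at day 4, against 102 and 91.4 CPM at day 0 (log2 fold change -0.41 ± 0.10, adjusted p 0.00559 by edgeR).

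These calls depended on single libraries, both of day 0 and of the later days. For BFP negative cells at day 4 no gene was called without day 0 replicate 1, 1 without day 0 replicate 2 and none without BFP negative replicate 2 of day 4. For BFP positive cells at day 4 there was 1 call without any 1 of the 4 libraries, and Psmd2 (-0.32 ± 0.07) was called under every setting tried. At day 2, BFP negative cells had 4 genes lower (Psmd1, Psmd3, Psme3 and Psmf1; 4.98% of all tested genes) and Psme1 higher (5.33%) than day 0. Without day 0 replicate 1 none of these was called, without day 0 replicate 2 there was 1 call, and without BFP negative replicate 2 of day 2 there were 2. BFP positive cells at day 2 had 5 genes lower than day 0 (Psmb8, Psmc5, Psmd3, Psmd11 and Psmf1; 8.77% of all tested genes) and 3 higher (9.1%), and the higher ones, Psma1, Psmd8 and Psmd13, lie on chromosome 7, whose median over all tested genes was 0.33. Here 4 genes were called without either day 0 library and 2 without either BFP positive library of day 2. Of the pair called without BFP positive replicate 1 of day 2, 1 was among the 8.

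Between BFP positive cells of day 4 and of day 2, 5 genes were lower (6.04% of all tested genes) and 2 higher (5.88%). The lower ones were the 4 chromosome 7 genes, with log2 fold changes from -0.56 to -0.44 beside a chromosome median of -0.28, and Psma7 (-0.28 ± 0.08). Psmb8 was higher, with 32.6 and 34.5 CPM at day 4, against 17.9 and 18.4 CPM at day 2 (0.88 ± 0.20, adjusted p 0.000945 by edgeR). Psma8 was also higher, with 9.40 and 9.79 CPM at day 4, against 3.10 and 6.81 CPM at day 2 (log2 fold change 1.12 ± 0.38, adjusted p 0.041 by edgeR). The day 2 values of Psma8 rest on 9 and 10 counts, and without BFP positive replicate 1 of day 2 its log2 fold change was 0.48 and not called. Without BFP positive replicate 1 of day 2 none of the 7 was called, and without BFP positive replicate 2 of day 4 there were 4 calls.

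Some counts may hold reads of other genes. Of the 76-base stretches of the principal transcript, 51.4% occur also in other annotated transcripts for Psme2 (in Psme2b), 39.3% for Psma5 and for Psmb5, 32.3% for Psmb3, 21.3% for Psma3 and 14.8% for Psmd2. The sources used here do not give how reads with several matches were counted. Psmb7 overlaps Nek6, Psmb9 overlaps Tap1, Psmc3ip overlaps Mlx and Psmd13 overlaps Sirt3 on the opposite strand, so without a stated strand setting their reads cannot be fully told apart. In this respect alone, these genes are less certain than Psmd1, Psmd3, Psmd8 and Psmc4, for which at most 7.57% of stretches are shared. Psmd1 does overlap Gm21972 on the same strand and Htr2b on the opposite strand, each with at most 15 counts over all libraries. Psmd3 overlaps Gm12356 on the opposite strand, which held 33 counts. Psmd8 and Psmc4 lie on chromosome 7, whose median log2 fold change in Ogdh knockdown was -0.04. The lowest median of the other chromosomes was -0.03. The Psmc4 call in Ogdh knockdown was lost at equal depth and with DESeq2.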

How the data were processed

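Polyadenylated RNA of 14 samples (7 groups of 2) was sequenced as 76-base single-end reads, per the labels' protocols. The authors deposited raw counts per gene as whole numbers. The labels' protocols name Trimmomatic, STAR, HTSeq and a human build, whereas the submitters' processing notes list STAR 2.6.1a and featureCounts 1.6.3 after Trimmomatic 0.36 and FastQC 0.11.5, with GRCm38; the identifiers are mouse. The authors also deposited a length per gene in bases (another unit), used for levels per kilobase and in a length offset.

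Genes were filtered with filterByExpr, scaled by TMM factors and put through quasi-likelihood tests in edgeR 4.0.16 (R 4.3.3) with a single model of all 14 samples and group as its term (residual degrees of freedom 7, prior 57.6; biological coefficient of variation 5.04%). A call is a Benjamini-Hochberg adjusted p under 0.05 over all 10791 tested genes, two-sided. Counts-per-million (CPM) are of tested genes after TMM scaling. ± after a log2 fold change is the standard error. DESeq2 1.42.0 was an alternative, as were another scaling, no filter, equal depth, length and chromosome offsets, other controls and leaving out each library. The scripts were tested on simulated data. Replicates differed by more than counting noise (chi-square per degree of freedom 1.16 to 2.71). Totals ran from 913482 to 10271698 counts, which limits genes of few counts most.

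The members, gene lists and markers were chosen with earlier results of these data known. The named genes were the active-site, immunoproteasome, activator, inhibitor and chaperone genes, the called genes (at most 10 by size in full) and the extremes of level in each subgroup; Psmd5, Psmd9 and Psmd10 and the promoter pair were named after their values were seen. A further marker on the erythroid list is not reported here.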

Additional observations from a re-analysis of the deposited data

Results flagged for a closer look

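Psmb8 was marked because the difference between BFP positive and BFP negative control cells was not the same on both days in a direct test. The log2 difference between BFP positive and BFP negative control cells was higher at day 4 than at day 2 by 1.08 ± 0.24 (adjusted p 0.00823 by edgeR). Psmb8 measured 17.9 and 18.4 CPM in BFP positive cells and 39.4 and 32.4 CPM in BFP negative cells at day 2, and 32.6 and 34.5 CPM in BFP positive cells and 31.4 and 30.3 CPM in BFP negative cells at day 4. A transcript annotated on the opposite strand, Gm20496, overlaps Psmb8 and held 10 counts over all libraries, beside 1414 for Psmb8.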

How the results depend on the processing

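For Ogdh knockdown against BFP positive control cells, every alternative kept a median log2 fold change of the 48 genes below 0 and made calls in the lower direction alone. The 23 calls became 5 at equal depth, 11 without the shallower library of each hairpin, 9 with DESeq2 and 1 to 16 when 1 library was left out. With another scaling there were 23, with no filter 19, with a length offset 17 and with a chromosome offset 21. With both control groups of day 4 there were 29. Over all tested genes 2.92% were called lower at equal depth and 3.46% with DESeq2, beside 8.36% in the main setting. For shOgdh346 the 8 calls became 5 with no filter, 0 at equal depth, 2 with DESeq2 and 0 to 3 with 1 library left out. For shOgdh2081 the 17 became 4 at equal depth, 11 with a length offset, 5 with DESeq2 and 0 to 9 with 1 library left out. Between BFP positive and negative cells at day 2 the 6 calls became 2 at equal depth, 2 with a chromosome offset, 3 with DESeq2 and 0 to 7 with 1 library left out; the single call for the change between days became 0 at equal depth and with DESeq2, and 0 to 1 with 1 library left out. Against day 0, the 5 calls of BFP negative cells at day 2 became 3 with no filter, 0 at equal depth, 1 with DESeq2 and 0 to 4 with 1 library left out, and the 8 of BFP positive cells at day 2 became 5 with no filter, 1 at equal depth, 3 with a chromosome offset, 3 with DESeq2 and 2 to 4 with 1 library left out. The 8 of BFP negative cells at day 4 became 0 at equal depth, 3 with DESeq2 and 0 to 7 with 1 library left out, and the 5 of BFP positive cells at day 4 became 2 at equal depth, 2 with DESeq2 and 1 with any library left out. Between day 4 and day 2 BFP positive cells the 7 became 4 with a chromosome offset and 0 to 10 with 1 library left out. A single value reversed, Psmd13 in BFP positive cells at day 2 against day 0, at -0.032 with a chromosome offset. For single genes in these comparisons, 2640 values kept their side of the threshold, 321 lost a call and 9 gained one. The 2640 include values of genes that were followed without a call, which had none to lose. These counts are therefore no rate of lost calls. The immunoproteasome share stayed without a call (differences -0.198 to 0.878). Apart from the offsets and from fewer reads or libraries by construction, the cause was not tested.

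The replicate numbers of the titles did not pair the samples: deviations from the group means correlated by -0.08 to 0.15 over 21 pairs of groups, 2 of them over 0.1. With the replicate number as a block, 25 genes were called in Ogdh knockdown, and 23 with a block by library number. The chromosome offset and the principal transcript length were chosen after seeing the data. Depth limits most the genes under about 30 CPM in the shallow Ogdh libraries.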
